A study of Mus musculus with 34 samples.

Results

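The genes described here are 10 subunits of condensin and cohesin, the ring-shaped complexes that shape and hold together chromosomes. They were taken by symbol from the deposited tables, as 10 of 49686 symbols in the zygote and late 2-cell tables and 10 of 51734 in the blastocyst table. They were selected on the zygote expression values, with a lower level of Smc4 in R442Q zygotes already known, so the genotype difference in zygotes is given as a description with no test. The study sequenced RNA from single mouse embryos that had been injected as zygotes with mRNA for CHK1, the checkpoint kinase that halts the cell cycle when DNA is damaged or incompletely copied. The injected mRNA encoded either the wild-type protein (WT) or the R442Q mutant. There were 5 WT and 6 R442Q zygotes and 4 WT and 5 R442Q late 2-cell embryos, labelled as untreated, and 7 WT and 7 R442Q blastocysts, all grown with a Chk1 inhibitor at 30 nM. Every group carried an injected CHK1 mRNA, and no uninjected embryos were analysed here. Age, strain and litter are not given in the sources used here, so p-values measure the spread between these embryos.

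Condensin compacts chromosomes in mitosis. It is built on the ATPase pair Smc2 and Smc4 and exists in 2 forms. Condensin I adds Ncapd2, Ncapg and Ncaph and reaches chromosomes after the nuclear envelope breaks down, while condensin II has its own non-SMC subunits, among them Ncapd3, and is nuclear in interphase. Cohesin holds sister chromatids together and extrudes chromatin loops. Smc3 is part of its ATPase pair, Rad21 is the mitotic kleisin that closes the ring and is cut by separase, and Stag2 is a subunit that contacts the kleisin. Rec8 is the meiotic kleisin that holds sister chromatids in the oocyte. In the early embryo the oocyte's own RNA is degraded while the embryonic genome is switched on.

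Promoters of 7 of the 10 genes were found in the RefSeq table for GRCm38.p6, in 8 windows of the 250 bases upstream of the annotated start, and Smc4, Rad21 and Stag2 had none there. The windows were searched on both strands for TTTGAA, the core of the cell cycle homology region used by genes of G2 and M phase, and for CCAAT, the box bound by the factor NF-Y. These motifs do not overlap in the windows shown. Ncapd2, Ncapg and Smc2 were the 3 genes with both motifs, and they are shown because all 3 are condensin genes with different courses across the stages. Among all 32851 mouse promoter windows of this length, 15.99% held TTTGAA, 33.8% held CCAAT and 5.55% held both. Capitals mark either motif as read on the gene's strand, so TTCAAA and ATTGG are the same motifs on the opposite strand. The windows are Ncapd2 at chr6:125191587-125191836 on the minus strand, Ncapg at chr5:45669675-45669924 on the plus strand and Smc2 at chr4:52438971-52439220 on the plus strand.
Ncapd2: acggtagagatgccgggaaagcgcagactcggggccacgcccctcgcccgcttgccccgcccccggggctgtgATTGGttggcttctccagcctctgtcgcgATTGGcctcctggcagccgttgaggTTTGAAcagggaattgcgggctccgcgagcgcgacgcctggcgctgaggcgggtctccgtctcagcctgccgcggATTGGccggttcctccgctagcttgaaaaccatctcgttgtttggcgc
Ncapg: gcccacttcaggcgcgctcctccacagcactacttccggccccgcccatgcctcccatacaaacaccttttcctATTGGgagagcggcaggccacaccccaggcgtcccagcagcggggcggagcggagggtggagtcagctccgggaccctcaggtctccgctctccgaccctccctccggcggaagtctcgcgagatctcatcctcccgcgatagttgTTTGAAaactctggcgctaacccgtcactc
Smc2: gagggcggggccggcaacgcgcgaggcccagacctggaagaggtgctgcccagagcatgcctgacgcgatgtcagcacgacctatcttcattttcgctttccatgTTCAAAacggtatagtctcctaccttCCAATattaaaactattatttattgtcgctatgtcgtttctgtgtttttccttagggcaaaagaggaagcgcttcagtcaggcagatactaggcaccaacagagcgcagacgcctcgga
The TTTGAA match lay 123 bases upstream of the start in Ncapd2, 30 bases upstream in Ncapg and 145 bases upstream in Smc2. Ncapd2 had 3 CCAAT matches, while Ncapg and Smc2 had 1 each. A match is a stretch of letters and was not tested as a binding site.

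The libraries held 7183632 to 11296522 counts in zygotes and 5727956 to 8916343 in late 2-cell embryos. The depth of the blastocyst libraries is unknown, since only FPKM was used there. Chek1, the gene of the injected kinase, was at 4594 to 8654 counts per 1000000 counts of the library (CPM) in WT zygotes and 5597 to 7171 in R442Q zygotes. The ranges overlapped, and whether the injected mRNA enters these counts, and the mutation itself, were not checked here. Summed FPKM of 10 maternal oocyte markers was 5891 to 8014 in WT zygotes and 3848 to 5700 in R442Q zygotes, which did not overlap. None of the 10 was at 0 in either group. Among 12 cumulus cell markers the sums were 18.8 to 23.0 and 16.2 to 22.9, with 1 marker at a mean of at least 1 FPKM in WT and 3 in R442Q. Ptx3, Amh, Inha and Lum were at 0 in all WT zygotes, and of the 12 Amh alone was at 0 in all R442Q zygotes. The cumulus sums in late 2-cell embryos were 7 to 25.4 FPKM in WT and 10.1 to 103.9 in R442Q, with Inha, Inhba and Lum at 0 in all embryos of both groups. In late 2-cell embryos, 10 genes of embryonic activation summed to 166 to 1815 FPKM in WT and 878 to 3599 in R442Q, and the maternal markers to 1329 to 3242 and 1787 to 7111. In blastocysts, 7 trophectoderm markers summed to 3210 to 24288 FPKM in WT and 1250 to 12886 in R442Q, and 7 inner cell mass markers to 126 to 587 and 95.6 to 328. The part of these levels in the results below was not tested.

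By the deposited FPKM, the 2 members with the highest level in WT zygotes were Smc4, at 97.7 ± 10.8 FPKM (SD, n = 5), and Ncapg, at 92.1 ± 15.6. FPKM is a fragment count scaled to transcript length and library size, so levels of different genes are set side by side on it. Their ranges, 80.4 to 107 and 75.0 to 108, overlapped. Ncaph followed at 61.6 ± 8.62 FPKM and Smc2 at 25.95 ± 4.78, and neither overlapped its higher neighbour. The condensin II subunit Ncapd3 stood at 15.5 ± 2.05 FPKM. Cohesin subunits were lower, with Rad21 at 9.38 ± 1.82 FPKM, Smc3 at 9.13 ± 3.89 and Stag2 at 6.62 ± 4.57, and these 3 overlapped each other. Ncapd2 was at 5.04 ± 1.98 FPKM, the lowest of the condensin subunits here. The deposited counts and FPKM together imply the transcript length that was used, and for Ncapd2 this was 1145 to 3069 bases over the 11 zygotes against 4629 for its longest annotated transcript. For Smc2 it was 769 to 1498 against 5404 bases and for Smc4 1374 to 1591 against 4316. For Stag2 it ran from 1539 to 5622 against 6171. The FPKM of these 4 genes, and their place in the order, depend on the length used. Divided by the longest transcript in kilobases, the mean CPM in WT zygotes was 82.9 for Ncapg, 56.9 for Ncaph, 32.7 for Smc4 and 12.6 for Ncapd3. On that scale Smc2, at 5.03 CPM per kilobase, stood below Smc3 at 8.95 and Rad21 at 8.86, and Stag2 at 2.46 and Ncapd2 at 1.96 came next. Smc4 was thus 1st by deposited FPKM and below Ncapg and Ncaph per longest transcript. For Ncapg, Ncaph, Smc3 and Rad21 the median implied length was between 90.1% and 98.2% of the longest transcript.

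**Figure D1:**
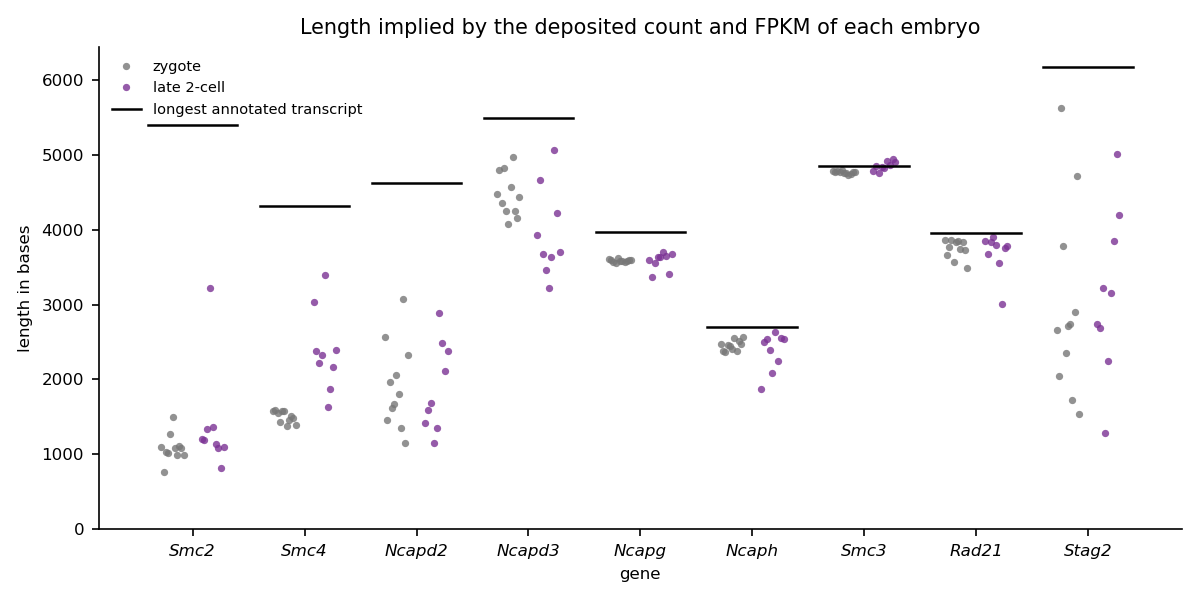
The y axis is the transcript length in bases implied by each embryo's count and FPKM, for 9 genes on the x axis, with grey points for zygotes, purple points for late 2-cell embryos and a black line at the longest annotated transcript. Points of Smc3 sit at their line, while those of Smc2 lie far below it and those of Stag2 spread from 1279 to 5622 bases.

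In R442Q zygotes the values behind the choice of these genes showed 3 members below every WT zygote, namely Smc4, Ncapg and Smc3. Smc4 (ENSMUSG00000034349.14, chromosome 3, 69004738 to 69034623, plus strand in GRCm38) stood at 147, 152, 156, 119 and 131 CPM in the 5 WT zygotes. In the 6 R442Q zygotes its lowest value was 36.5, its median 54.6 and its highest 65.8 CPM. No R442Q zygote reached the lowest WT zygote, and the fitted log2 difference was -1.30 ± 0.15 (SE), a 2.47-fold lower level. Ncapg (ENSMUSG00000015880.13, chromosome 5, 45669919 to 45700546, plus strand), a subunit of condensin I alone, had 344, 373, 388, 269 and 275 CPM in WT. In R442Q zygotes it ran from 81.7 through a median of 112 to 177 CPM, all below the WT embryos, with a log2 difference of -1.36 ± 0.18. Ncapg overlaps Lcorl on the opposite strand and strand use is not given in the sources used here, and Lcorl held 2.03 to 3.11 CPM in WT zygotes. On the same strand Ncapd2 overlaps Scarna10 and Gm28967, which reached 0.508 and 1.17 CPM over the zygotes and late 2-cell embryos, and Smc4 overlaps Mir15b, at 0 counts in all of them, and Mir16-2. On the opposite strand Stag2 overlaps Gm37564, at 0 counts in all of them, and Smc2 overlaps Tmc4-ps. Mir16-2 and Tmc4-ps were not analysed here, and how the counting split reads between overlapping genes was not tested.

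Smc3 (ENSMUSG00000024974.10, chromosome 19, 53600398 to 53645833, plus strand) was the cohesin member that stood apart. Its WT zygotes held 41.0, 73.9, 27.1, 43.5 and 31.4 CPM. In R442Q zygotes the lowest was 10.6, the median 15.5 and the highest 19.6 CPM, again with no overlap, and the log2 difference was -1.35 ± 0.23. Smc2, the partner of Smc4, had 29.5, 30.7, 20.0, 29.2 and 26.3 CPM in WT zygotes against 11.1 to 21.95 with a median of 14.3 in R442Q. The highest R442Q zygote passed the lowest WT zygote, and the log2 difference was -0.68 ± 0.18. Ncaph was at 153 ± 17.2 CPM in WT and 123 ± 21.5 in R442Q, with a log2 difference of -0.19 ± 0.13. Ncapd3 was at 69.0 ± 4.54 and 67.7 ± 12.2 CPM, and its log2 difference of 0.09 turned to -0.03 when only library totals were used for scaling. Ncapd2 was at 9.09 ± 4.53 CPM in WT and 13.2 ± 3.36 in R442Q, a log2 difference of 0.66 ± 0.30. Without WT replicate 5, which held 17.0 CPM against 5.92 to 8.41 in the other WT zygotes, that difference was 1.02. Rad21, at 35.0 ± 7.47 and 36.9 ± 4.53 CPM, and Stag2, at 15.2 ± 6.59 and 17.0 ± 2.07, lay together in the 2 genotypes. The log2 difference of Stag2 was 0.29, and on log2(FPKM + 1) it was -0.018, where that of Ncapd3 was -0.038.

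In zygotes 9 members had enough counts to be fitted, and no calls are given for them. Of all 12420 genes, 13.2% were called in either direction, 6.92% lower and 6.3% higher. The share of all genes whose genotypes did not overlap was 9.39%, with R442Q lower in 6.84% and higher in 2.54%. Nothing is read from the 3 members without overlap beside these shares, because this contrast chose the members. The median log2 difference was -0.19 over the 9 members and 0.01 over all genes. With library totals alone the median of all genes moved to -0.11, and the split of all genes called moved from 783 higher and 860 lower to 502 higher and 1338 lower. With limma on log2(FPKM + 1) it was 411 higher and 1231 lower, and in a fit shared with late 2-cell embryos 197 higher and 73 lower. A CPM is a share of the embryo's library, not an amount of RNA. At the later stages, where a library holds several cells, fewer cells of a kind and less RNA per cell cannot be told apart.

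**Figure D2:**
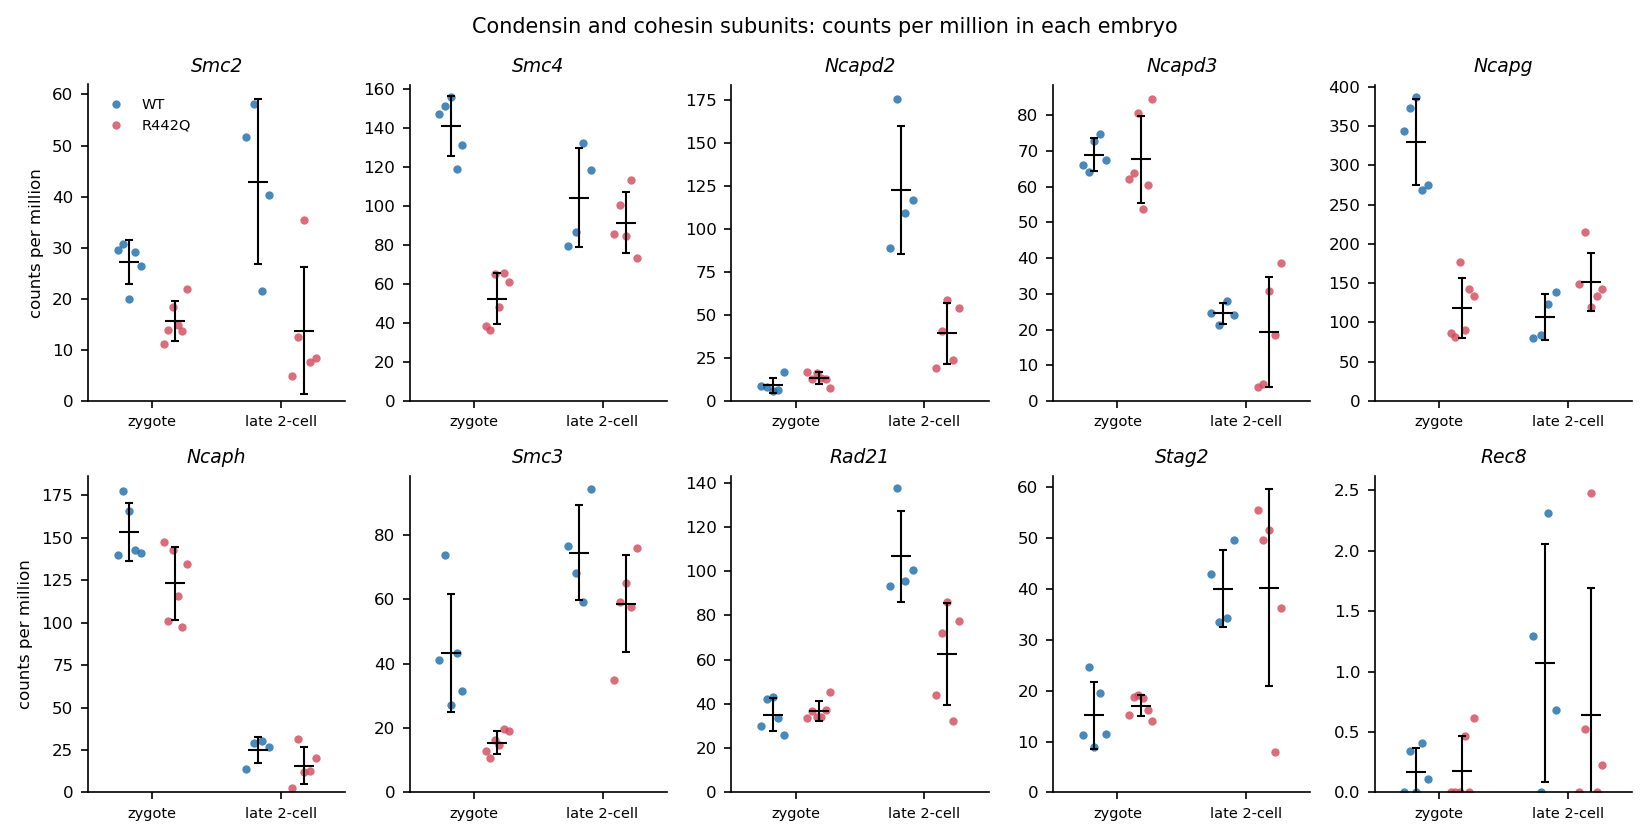
Each panel plots the CPM of a gene on a linear y axis that starts at 0, with a point for each embryo by stage on the x axis, blue for WT and red for R442Q, and a black bar for the mean and SD. R442Q zygotes of Smc4, Ncapg and Smc3 all lie below the WT zygotes, and R442Q late 2-cell embryos of Ncapd2 and Rad21 all lie below the WT ones.

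From zygote to late 2-cell embryo the condensin genes moved in different directions, while Smc3, Rad21 and Stag2 were called higher in each genotype. Of the 5 other cohesin core genes listed, Stag3 was called higher in WT and Smc1a lower in R442Q. Rad21l was called lower in each genotype but passed the filter on low counts through zygotes alone, so nothing is read from its calls. The log2 change of Smc1a, the ATPase partner of Smc3, was -1.36 ± 0.46 in R442Q (edgeR adjusted p = 0.013), a gene named here after its values were seen. In WT embryos Ncapd2 rose 12.9-fold, Ncaph fell and Ncapg fell, although these 3 proteins sit in the same complex. Stag2 rose in both genotypes, and Ncapd3 and Ncaph fell in both. The calls of Rad21 in R442Q and Smc3 in WT were lost in 12 and 19 of 20 fits that left out an embryo. The comparison came from a model of 4 groups in edgeR, in which 7 of the 9 members were called in WT, 4 higher and 3 lower, beside 61.2% of all 16199 genes (36.2% higher and 25% lower). In R442Q 7 were called, 5 higher and 2 lower, beside 65.1% of all genes (35.3% higher and 29.8% lower). The stages did not overlap for 6 of the 9 members fitted in WT and 5 in R442Q, beside 56.7% and 44.9% of all genes fitted. With 9 members nothing is read from these shares, and stage and table cannot be told apart. The median log2 change of all genes was 0.34 in WT and 0.22 in R442Q, and it was -0.01 and -0.03 when the embryos of each genotype were fitted alone. The zygote values entered the choice of members, so the stage changes are not fully independent of it.

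Ncapd2 (ENSMUSG00000038252.13, chromosome 6, 125168007 to 125191701, minus strand) went from 8.41, 7.93, 5.92, 6.22 and 17.0 CPM in WT zygotes to 88.8, 176, 110 and 117 CPM in WT late 2-cell embryos. Every late 2-cell embryo was above every zygote, and the log2 change was 3.69 ± 0.38 (edgeR adjusted p = 2.0e-08). In R442Q it went from a range of 7.61 to 17.0 CPM with a median of 13.0 to 19.2, 40.5, 58.8, 23.9 and 54.3 CPM. The stages did not overlap there either, and the log2 change was 1.36 ± 0.32 (edgeR adjusted p = 8.4e-04). The other condensin I subunits took the opposite course in WT. Ncaph (ENSMUSG00000034906.15, chromosome 2, 127103809 to 127133954, minus strand) fell from 140, 178, 166, 143 and 141 CPM to 13.6, 29.0, 30.6 and 26.5 CPM, by 2.68 ± 0.42 on the log2 scale (edgeR adjusted p = 9.4e-06). In R442Q it went from a median of 125 CPM to 2.42, 31.6, 12.04, 12.6 and 20.2 CPM, a log2 change of -3.16 ± 0.39 (edgeR adjusted p = 2.2e-07). No late 2-cell embryo of either genotype reached the lowest zygote of its genotype.

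Ncapg fell in WT from the zygote values above to 79.7, 83.9, 124 and 139 CPM, by 1.70 ± 0.27 on the log2 scale (edgeR adjusted p = 9.4e-06). In R442Q late 2-cell embryos it was at 149, 215, 120, 133 and 142 CPM, within and above the zygote range of 81.7 to 177. The log2 change there was 0.18 ± 0.23 (edgeR adjusted p = 0.49), with a 95% interval of -0.30 to 0.67. Ncapd3 (ENSMUSG00000035024.16, chromosome 9, 27030175 to 27095315, plus strand), the condensin II member, fell in WT from 66.0, 64.0, 72.7, 74.7 and 67.6 CPM to 24.6, 21.2, 28.1 and 24.2 CPM. The log2 change was -1.57 ± 0.43 (edgeR adjusted p = 0.0031). In R442Q embryos it went from 53.9 to 84.6 CPM in zygotes to 3.97, 4.71, 30.7, 18.6 and 38.7 CPM, a log2 change of -2.02 ± 0.39 (edgeR adjusted p = 1.1e-04). The 5 R442Q late 2-cell values of Ncapd3 were spread around the 4 WT values, which lay close together.

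For the ATPase pair of condensin, Smc4 in WT late 2-cell embryos was at 79.7, 86.7, 132 and 119 CPM, a log2 change of -0.51 ± 0.23 that did not pass the threshold (edgeR adjusted p = 0.060). In R442Q it was at 85.6, 101, 84.4, 113 and 73.5 CPM, all above the R442Q zygotes, a log2 change of 0.62 ± 0.21 (edgeR adjusted p = 0.011). That p is not independent of the choice of members, which used the low R442Q zygote values. By FPKM the R442Q mean of Smc4 was 33.97 in zygotes and 35.8 in late 2-cell embryos as deposited. It was 51.8 and 41.6 with libraries rescaled to a common total. The implied length of Smc4 ran from 1432 to 1591 bases in R442Q zygotes and 2226 to 3398 in late 2-cell embryos. The WT change of Smc4 passed the threshold in 14 of the 20 fits that left out an embryo, all but those leaving out WT late 2-cell replicate 1 or 2 or WT zygote replicate 1, 3, 4 or 5, with log2 changes down to -0.77. It also passed with DESeq2 (-0.55, adjusted p = 0.028), with RLE size factors (-0.55, edgeR adjusted p = 0.043) and with the WT groups fitted alone (-0.61, edgeR adjusted p = 0.015). Smc2 was at 51.8, 58.2, 21.5 and 40.3 CPM in WT late 2-cell embryos, a log2 change of 0.59 ± 0.41 (edgeR adjusted p = 0.22). In R442Q its log2 change was -0.42 ± 0.38 (edgeR adjusted p = 0.34). Without R442Q late 2-cell replicate 3, which held the highest value of 35.5 CPM, that change was -1.01 (edgeR adjusted p = 0.0089).

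Of the cohesin members, Rad21, Stag2 and Smc3 were called higher in each genotype, and Rec8 could not be fitted. Rad21 (ENSMUSG00000022314.10, chromosome 15, 51962240 to 51991747, minus strand) went from 30.2, 42.2, 43.1, 33.8 and 25.99 CPM in WT zygotes to 93.5, 137, 95.4 and 100.4 CPM, a log2 change of 1.54 ± 0.26 (edgeR adjusted p = 2.4e-05). In R442Q it went from 33.5 to 45.6 CPM, with a median of 35.5, to 44.2, 72.3, 86.1, 32.2 and 77.3 CPM. The R442Q stages overlapped, the log2 change was 0.55 ± 0.23 (edgeR adjusted p = 0.042), and 12 of the 20 fits that left out an embryo did not call it (those leaving out R442Q late 2-cell replicate 2, 3 or 5, R442Q zygote replicate 1 to 5, WT late 2-cell replicate 1, 3 or 4, or WT zygote replicate 2; highest adjusted p 0.098, R442Q zygote replicate 3 left out). With no filter on low counts it was not called either (edgeR adjusted p = 0.104). Stag2 (ENSMUSG00000025862.14, chromosome X, 42149317 to 42277185, plus strand) went from 11.4, 24.6, 8.95, 19.5 and 11.5 CPM to 42.9, 33.5, 34.3 and 49.5 CPM in WT, a log2 change of 1.32 ± 0.40 (edgeR adjusted p = 0.0062). In R442Q it went from 14.1 to 19.1 CPM in zygotes to 55.5, 49.6, 51.6, 8.02 and 36.3 CPM, a log2 change of 1.05 ± 0.36 (edgeR adjusted p = 0.013). The stages overlapped there through late 2-cell replicate 4, at 8.02 CPM. Smc3 was at 76.5, 68.4, 59.3 and 94.2 CPM in WT late 2-cell embryos, and its log2 change of 0.71 ± 0.29 passed the threshold narrowly (edgeR adjusted p = 0.036). It was called in 1 of the 20 fits that left out an embryo, WT zygote replicate 2 (adjusted p = 0.016), and the highest adjusted p was 0.139, with WT late 2-cell replicate 4 left out. With no filter on low counts the log2 change was 0.67 (edgeR adjusted p = 0.108), and with the WT groups fitted alone it was 0.62 (edgeR adjusted p = 0.067), so neither called it. In R442Q Smc3 was at 35.0, 59.4, 65.1, 57.6 and 76.2 CPM, above every R442Q zygote, and its log2 change was 1.72 ± 0.27 (edgeR adjusted p = 5.6e-06). This change starts from low R442Q zygote values that entered the choice of members, so its p is not independent of that choice. Whether the stage changes differed between genotypes was not tested, because that contrast holds the zygote difference that chose the members.

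**Figure D3:**
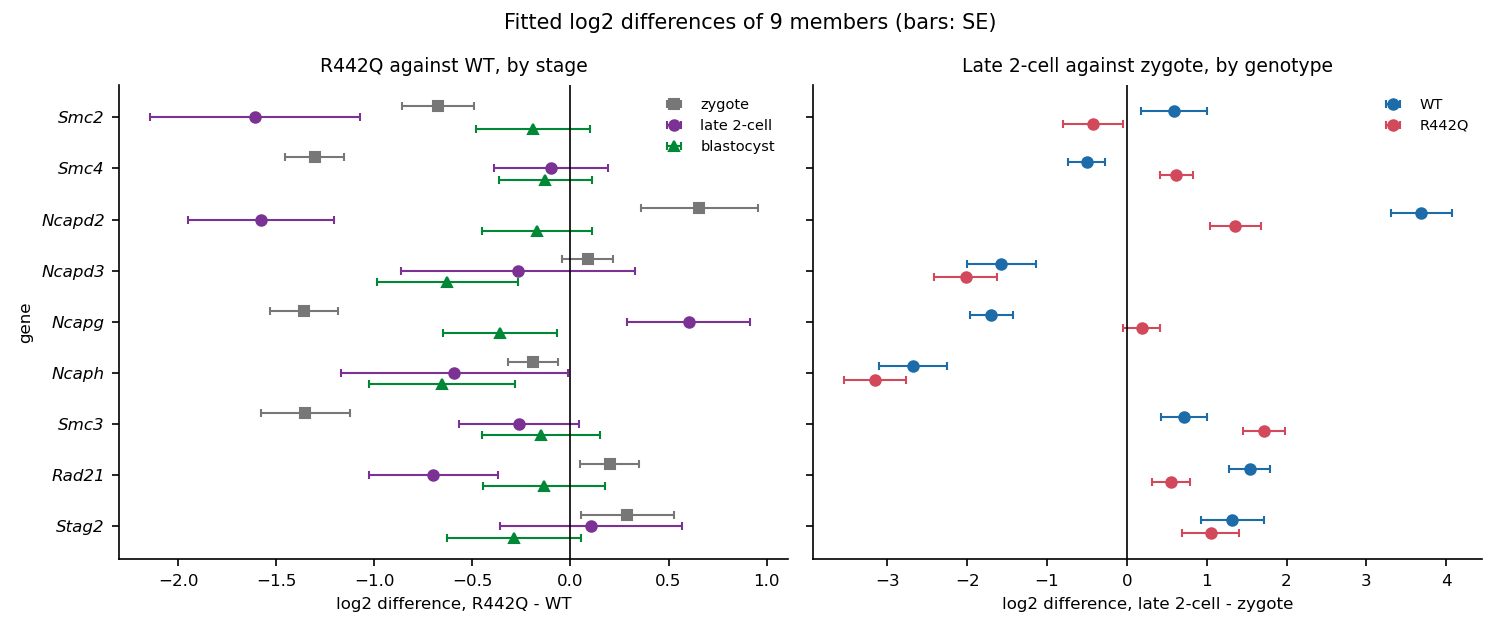
The left panel plots the log2 difference of R442Q against WT on the x axis for 9 genes, with grey squares for zygotes, purple circles for late 2-cell embryos and green triangles for blastocysts, and the right panel plots the log2 change from zygote to late 2-cell embryo in WT (blue) and R442Q (red). Bars are SE; Smc4, Ncapg and Smc3 lie between -1.36 and -1.30 in zygotes, Ncapd2 lies at -1.58 in late 2-cell embryos, and all 9 triangles lie below 0, though those of Smc3 and Rad21 turned without R442Q blastocyst replicate 7.

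In late 2-cell embryos, Ncapd2 was lower in R442Q, and it was the member that passed the threshold. Its 4 WT embryos held 88.8 to 176 CPM and its 5 R442Q embryos 19.2 to 58.8 CPM, so that no R442Q embryo reached the lowest WT embryo. The mean was 123 ± 37.2 CPM (SD, n = 4) in WT and 39.3 ± 17.7 (n = 5) in R442Q, resting on 549 to 1209 and 111 to 484 counts. The log2 difference was -1.58 ± 0.37 (edgeR adjusted p = 0.030), a 2.99-fold lower level. Of the 9 members fitted, 1 was called, beside 4.18% of all 13883 genes called in either direction and 2.95% called lower. The number of all genes called was 580, and without 1 embryo it ran from 142 (WT replicate 2) to 891 (R442Q replicate 3). The split of all genes called was 170 higher and 410 lower, against 264 and 388 with limma on FPKM and 67 and 76 with the trend on GC content and length removed. On log2(FPKM + 1) with limma the difference was -0.92 and was not called (adjusted p = 0.164). Leaving out WT replicate 2, 3 or 4 or R442Q replicate 1, 2 or 4 ended the edgeR call, and the highest edgeR adjusted p was 0.112, with WT replicate 2 left out. With each library's trend on GC content and length removed, which was added once the data had been seen, the log2 difference was -0.88 (edgeR adjusted p = 0.217); the longest transcript of Ncapd2 has a GC content of 54.0%, against 34.8% to 48.4% in the other 8 members fitted.

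Rad21 was the other member with no overlap. Its WT embryos held at least 93.5 CPM and its R442Q embryos at most 86.1 CPM, with means of 107 ± 20.7 and 62.4 ± 23.1. The log2 difference of -0.70 ± 0.33 did not pass the threshold (edgeR adjusted p = 0.24), and its 95% interval ran from -1.48 to 0.08. The 2 members without overlap stand beside 12.4% of all genes without overlap, 8.77% with R442Q lower and 3.67% with R442Q higher. Smc2 was at 4.83, 12.6, 35.5, 7.54 and 8.41 CPM in R442Q, resting on 28 to 215 counts, against 21.5 to 58.2 CPM in WT. R442Q replicate 3 alone lay inside the WT range. The log2 difference was -1.61 ± 0.53 (edgeR adjusted p = 0.10), and without that embryo it was -2.23 (edgeR adjusted p = 0.019). DESeq2 gave Smc2 an adjusted p of 0.035.

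The 3 members that stood apart in zygotes overlapped between genotypes at this stage. Smc4 was at 104 ± 25.3 CPM in WT and 91.5 ± 15.6 in R442Q, a log2 difference of -0.10 ± 0.29 (edgeR adjusted p = 0.88) with a 95% interval of -0.79 to 0.59. Ncapg was at 107 ± 29.4 CPM in WT and 152 ± 37.1 in R442Q, a log2 difference of 0.60 ± 0.31 (edgeR adjusted p = 0.29) with an interval of -0.14 to 1.34. Smc3 was at 74.6 ± 14.9 and 58.7 ± 15.1 CPM, a log2 difference of -0.26 ± 0.31 (edgeR adjusted p = 0.68). Ncaph, Ncapd3 and Stag2 had log2 differences of -0.59, -0.27 and 0.10 (edgeR adjusted p = 0.61, 0.84 and 0.93). The median over the 9 members was -0.27 against 0.07 over all genes.

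The implied transcript length also differed by genotype in late 2-cell embryos for some members, a comparison made after the values were seen and given with no test. For Ncapd2 it was 2108 to 2885 bases in the 4 WT embryos and 1154 to 1686 in the 5 R442Q embryos, which did not overlap. For Smc2 it was 816 to 1140 bases in WT and 1190 to 3221 in R442Q, also without overlap. Of the 9 members, 3 did not overlap, the third being Smc3 with a 1.02-fold difference, beside 30.4% of the 10811 genes with a length in every embryo. With a difference of over 1.2-fold as well, 2 did so beside 4.23%. FPKM gave a smaller difference than counts for Ncapd2 and a larger one for Smc2. On log2(FPKM + 1) with limma the difference was -2.28 for Smc2 (adjusted p = 0.032), against the -0.92 given above for Ncapd2.

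In blastocysts the genotypes overlapped for all 10 members, and none passed the threshold. All 9 members fitted had log2 differences below 0 on the log2(FPKM + 1) scale, from -0.13 for Smc4 to -0.65 for Ncaph. Without R442Q replicate 7 those of Smc3 and Rad21 turned to 0.050 and 0.059, and the median of all genes moved to 0.0013. The median over them was -0.19 and over all genes -0.10. With limma, 0.00885% of all 11297 genes were called (1 gene, against 30 without WT replicate 7 and 0 to 2 in the other 13 fits without 1 embryo), and 0 members had an unadjusted p under 0.05. Ncaph ran from 21.2 through a median of 26.1 to 37.2 FPKM in WT and from 6.42 through 18.1 to 42.1 in R442Q, and its wide R442Q range held every WT value. Its log2 difference was -0.65 ± 0.37 (limma adjusted p = 0.76). Ncapd3 was at 11.4 ± 4.07 FPKM in WT and 7.30 ± 3.15 in R442Q, a log2 difference of -0.63 ± 0.36 (limma adjusted p = 0.76). Smc4 was at 46.6 ± 13.6 and 41.7 ± 9.52 FPKM, and the 95% interval of its log2 difference was -0.65 to 0.39. For Ncapd2, at 36.05 ± 12.9 and 31.8 ± 10.5 FPKM, the interval was -0.78 to 0.44. The share of all genes whose genotypes did not overlap was 0.416%, with R442Q higher in 0.354% and lower in 0.062%.

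Set side by side as deposited FPKM, which was normalised separately for each stage, the WT means gave 3 courses. Smc4, Ncapg, Ncaph and Ncapd3 were highest in zygotes. Ncapg went from 92.1 FPKM in zygotes to 29.7 in late 2-cell embryos and 11.9 in blastocysts, while Ncaph went from 61.6 to 10.1 and back to 26.8. Ncapd2, Rad21 and Stag2 were highest in late 2-cell embryos, with Ncapd2 at 5.04, 50.7 and 36.05 FPKM. Smc2, Smc3 and Rec8 were highest in blastocysts, and Smc3 went from 9.13 to 15.2 and 27.2 FPKM. The lengths behind the FPKM of blastocysts are unknown, so the genes are not ranked against each other there. Blastocysts alone were grown with the Chk1 inhibitor, so stage and inhibitor cannot be told apart in these courses. In R442Q 6 members were highest in blastocysts and 2 each in zygotes and late 2-cell embryos. With every library rescaled to a common total over the symbols that the tables share, 2 members were highest in WT blastocysts and 3 in R442Q blastocysts, so the order of stages depends on that scaling.

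**Figure D4:**
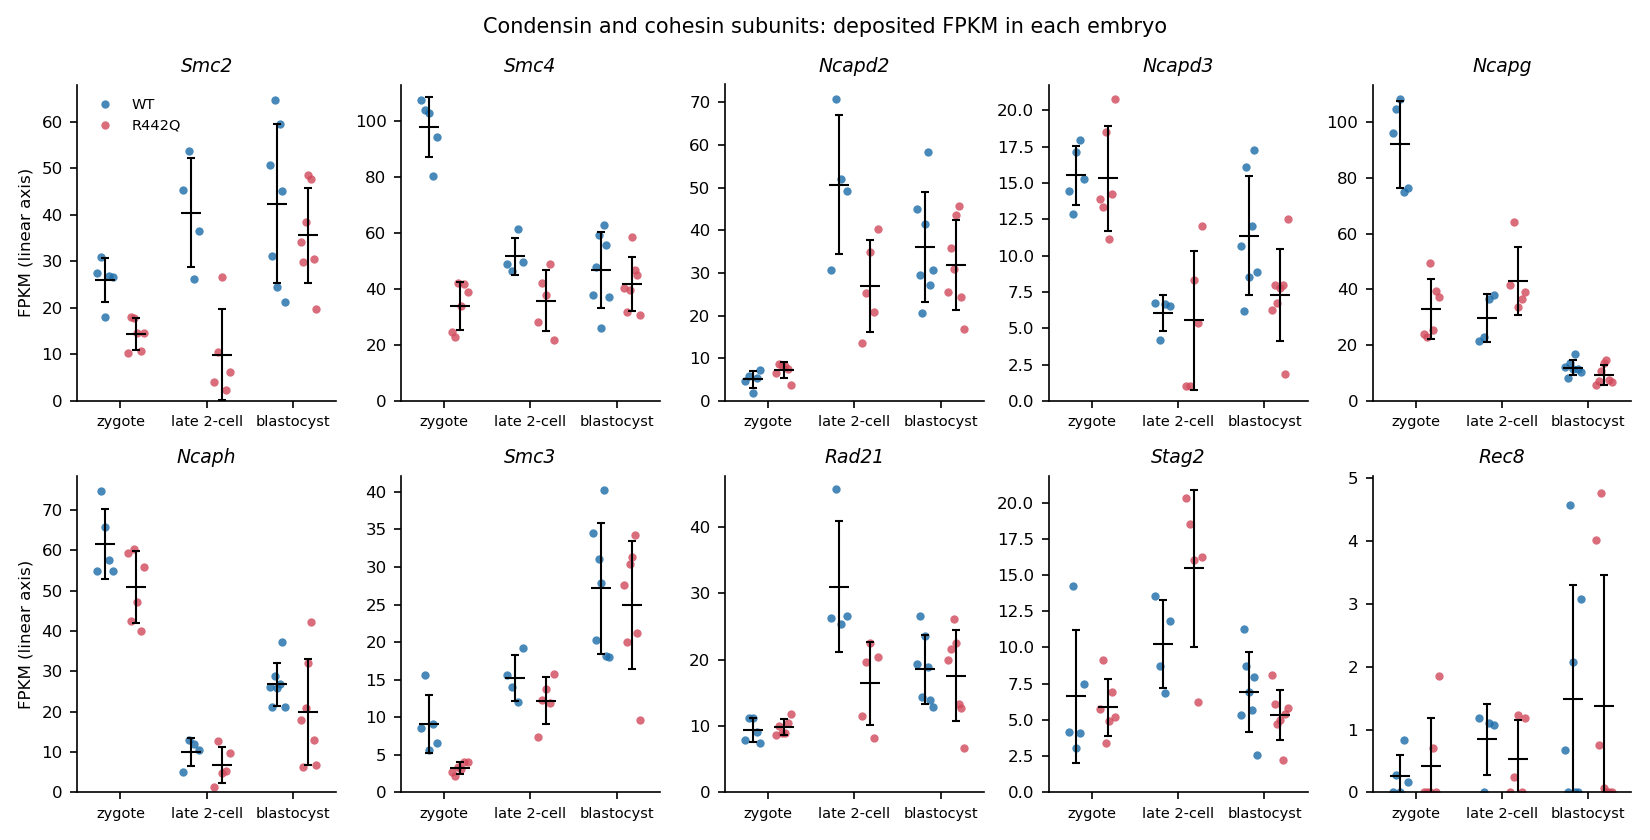
Each panel plots the deposited FPKM of a gene on a linear y axis that starts at 0, with a point for each embryo at the 3 stages on the x axis, blue for WT and red for R442Q, and a black bar for the mean and SD. Ncapg steps down from zygote to blastocyst in WT, Ncapd2 is lowest in zygotes, and the genotypes overlap in every blastocyst panel. Only the blastocysts were grown with the Chk1 inhibitor.

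Rec8 (ENSMUSG00000002324.8, chromosome 14, 55618037 to 55625395, plus strand), the meiotic kleisin, was near the limit of detection and was not fitted in any comparison. It had at most 3 counts in WT zygotes, 7 in R442Q zygotes and 15 in late 2-cell embryos. It was at 0 counts in 2 of 5 WT and 4 of 6 R442Q zygotes and in 1 of 4 WT and 2 of 5 R442Q late 2-cell embryos. A count of 0 allows up to 3 counts, which was 0.266 to 0.418 CPM in zygotes and 0.336 to 0.524 CPM in late 2-cell embryos. In blastocysts it was at 0 FPKM in 3 of 7 embryos of each genotype and reached 4.57 in WT and 4.76 in R442Q.

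Another 36 genes of these pathways were followed, namely the remaining condensin and cohesin subunits, cohesin regulators, the Smc5/6 complex and partners such as topoisomerase II. In late 2-cell embryos 2 of the 34 fitted were called between genotypes, 1 higher and 1 lower, beside 4.18% of all genes, which is near the share of these genes. Espl1, separase, the protease that cuts the cohesin kleisin, was lower in R442Q, at 104, 136, 154 and 158 CPM in WT against 40.7, 33.0, 75.9, 78.4 and 46.9 CPM in R442Q. These ranges did not overlap, and the log2 difference was -1.26 ± 0.32 (edgeR adjusted p = 0.043). Pttg1, securin, which holds separase inactive, was higher in R442Q, at 340 ± 50.2 CPM in WT and 733 ± 148 in R442Q, a log2 difference of 1.21 ± 0.29 (edgeR adjusted p = 0.031). Leaving out WT replicate 1, 2, 3 or 4 or R442Q replicate 1, 2 or 5 ended the call of Espl1 (highest adjusted p 0.130, WT replicate 4 left out), and leaving out any WT replicate or R442Q replicate 1 or 4 ended that of Pttg1 (highest 0.108, WT replicate 2 left out). With the trend on GC content and length removed the log2 differences were -0.26 and 0.66, and neither passed. On log2(FPKM + 1) with limma Espl1 was at -0.65 (adjusted p = 0.298), and with no filter on low counts Pttg1 was at 1.14 (edgeR adjusted p = 0.054). In zygotes 9 of 35 were called, 3 higher and 6 lower, beside 13.2% of all genes, 6.3% higher and 6.92% lower. Nothing is read from the 9, because this contrast chose the members and the lists were made with earlier results known. In blastocysts 0 of 33 were called, beside 0.00885% of all genes, with 2 at an unadjusted p under 0.05 in limma.

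From zygote to late 2-cell embryo 18 of these 36 genes were called in WT, 8 higher and 10 lower, and 18 in R442Q, 6 higher and 12 lower, against the shares of 61.2% and 65.1% of all genes. The regulator Pds5a, which binds cohesin with Wapl, rose in WT from 3.88 ± 1.71 to 40.7 ± 9.03 CPM, a log2 change of 3.32 ± 0.40 (edgeR adjusted p = 2.5e-07). Stag3, the meiotic relative of Stag2, rose from 5.31 ± 1.89 to 19.1 ± 10.1 CPM (edgeR adjusted p = 0.0072). Eid3, of the Smc5/6 complex, was at 0 counts in all 5 WT zygotes and at 0.340 to 2.91 CPM in the 4 late 2-cell embryos. Rad21l, a meiotic kleisin, went the other way, from 0.811 to 2.72 CPM in WT zygotes to 0 counts in all 4 late 2-cell embryos. Eid3 and Rad21l had at most 18 and 22 counts in a WT embryo and were fitted through 1 stage alone, so no p is given for them and their calls are read as no result. Slf1, which links the Smc5/6 complex to damaged DNA, fell from 51.0 ± 6.84 to 1.84 ± 1.91 CPM (edgeR adjusted p = 4.9e-06). Top2b, a topoisomerase II, was at 15.2 ± 3.84 CPM in WT zygotes and 1.49 ± 1.47 in late 2-cell embryos, and it too passed the filter through zygotes alone, so no p is given.

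Over the 20 zygotes and late 2-cell embryos, the genes whose log2 CPM was most like that of Smc4 were Gnl2, Utp4 and Ddx55, with Pearson correlations of 0.81, 0.80 and 0.80 among 16190 genes compared. Within the zygotes alone the correlations were 0.93, 0.96 and 0.93, and within the late 2-cell embryos alone 0.32, 0.23 and 0.04. The points share libraries and include the genotype difference in zygotes, so these values are a description.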

How the data were processed

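RNA of single embryos was made into cDNA with SMART-seq2, cut with Tn5 and sequenced on a HiSeq X-10, per the labels' protocols. The authors deposited estimated counts per gene symbol for zygotes and late 2-cell embryos and FPKM for all stages; RSEM and mm10 are named in the submitters' processing notes, with no role given here, and the annotation and strand use are not given in the sources used here. Columns were matched to embryos by name, and no libraries held identical values. Expected counts were rounded, filtered with filterByExpr (minimum count 10), scaled by TMM and tested with edgeR 4.0.16 in R 4.3.3, R442Q against WT within each stage and late 2-cell against zygote in a model of 4 groups. For blastocysts limma 3.58.1 with a trend was run on log2(FPKM + 1), over genes with FPKM of at least 1 in at least 7 embryos. Calls are at a p of 0.05 after Benjamini-Hochberg adjustment over all genes fitted. CPM is relative to the library total, SE is the log2 difference over the square root of the test statistic, and 95% intervals use the residual degrees of freedom. Gene positions, lengths and GC content are from GENCODE M21 (GRCm38). Counting limits cover counting error only, since amplified reads are not independent molecules. The members and pathway lists were chosen with earlier results of these data known. All 10 members are named; of the other listed genes, up to 3 with the largest change in each direction past the threshold are named in the late 2-cell, blastocyst and WT stage comparisons. The scripts' tests were checked on simulated data. Alternatives were DESeq2 1.42.0, other scalings, no low-count filter, limma on FPKM, joint or separate fits, a replicate block, a GC and length correction, and leaving out each embryo.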

Additional observations from a re-analysis of the deposited data

Results flagged for a closer look

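In 4 of the 60 groups of embryos examined for the members, a lone embryo lay far from the rest of its group, by the gap to its nearest neighbour over the group's range; chance flags about 1 in 20 groups. Rad21 was at 45.6 CPM in R442Q zygote replicate 6, above the 33.5 to 37.4 CPM of the other 5. Stag2 was at 8.02 CPM in R442Q late 2-cell replicate 4, below the 36.3 to 55.5 CPM of the other 4. Ncapd3 was at 1.84 FPKM in R442Q blastocyst replicate 6, below the 6.26 to 12.5 FPKM of the others. Smc3 was at 9.58 FPKM in R442Q blastocyst replicate 7, below the 20.1 to 34.3 FPKM of the others.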

How the results depend on the processing

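The number of members called between genotypes in late 2-cell embryos moved most, from 1 to 2 with DESeq2 or with no filter on low counts (Smc2 added each time), 3 in a joint fit with zygotes (Rad21 and Smc2 added), 0 with a replicate block, 0 with the GC and length trend removed, and 0 to 2 over the fits without 1 embryo. Over all genes the late 2-cell calls were 580, against 1846 with DESeq2, 889 with no filter, 2507 in the joint fit, 58 with the block and 143 with the trend removed, and in zygotes, over all genes, 1643 against 270 in the joint fit. Signs turned for uncalled values: in zygotes Ncapd3 (-0.026 with library totals, -0.038 with limma on FPKM) and Stag2 (-0.018 with limma on FPKM), Ncapd3 in late 2-cell embryos (0.035 with the trend removed), Stag2 there (-0.070 with the block, -0.093 to 0.37 without 1 embryo) and Smc4 there (-0.24 to 0.015 without 1 embryo), and in blastocysts Smc3 (-0.24 to 0.050) and Rad21 (-0.25 to 0.059) without 1 embryo; the cause was not tested. Members called without 1 embryo ranged from 6 to 8 for the WT stage change and 6 to 7 for the R442Q one. No member was called in any such blastocyst fit. Replicate numbers did not pair the embryos: same-numbered embryos correlated at -0.06 to 0.05 in zygotes, -0.13 to 0.21 in late 2-cell embryos and -0.23 to 0.26 in blastocysts, and 1, 1 and 2 of them were the best match by their number. By the numbers in the descriptions and deposited columns, which differ from the titles for some embryos, they correlated at -0.07 to 0.03 in 5 zygote pairs and -0.13 to -0.07 in 3 late 2-cell pairs; no block was fitted on those. With the block the Ncapd2 difference was -1.80 (edgeR adjusted p = 0.064), the edgeR adjusted p-values of Espl1 and Pttg1 there were 0.112 and 0.107, and Rad21 (0.055) and Stag2 (0.98, adjusted p = 0.051) left the calls of the R442Q stage change, leaving 5 members. Low counts limit Rec8 in zygotes and late 2-cell embryos. They also limit Smc2, Ncaph and Ncapd3 in R442Q late 2-cell embryos, where the lowest counts were 28, 14 and 23. Depth is unknown in blastocysts.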
